A study of Mus musculus with 15 samples.

Results

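Hypoxia and glycolysis genes were followed in RNA from tumours of LLC1, a mouse line of Lewis lung carcinoma, as 38 gene symbols named for their known function: HIF subunits and oxygen sensors, glucose transporters, glycolytic enzymes and HIF targets. The symbols matched 39 of the 53465 gene identifiers in the deposited count table, because Aldoa stands under a pair of identifiers. All 39 passed the filter on low counts, which left 16617 genes to test. Tumours were either LLC1, called wild type (WT) here, or LLC1-sgLkb1, labelled as a knockdown of LKB1 (KD). LKB1 is a kinase encoded by Stk11. Each genotype had 3 libraries from mice given an immune checkpoint inhibitor (ICI) and 3 from mice given radiation with that inhibitor (RI). Radiation alone (RT) was given to KD tumours only, with 3 libraries that come as FPKM. No group is labelled untreated, and WT tumours with radiation alone are not analysed here. The inhibitor, the radiation dose, the time of harvest, the age and sex of the mice, and whether the KD line is 1 clone are not given in the labels.

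Cells answer low oxygen through the hypoxia-inducible factors. When oxygen is present, the prolyl hydroxylases encoded by Egln1 and Egln3 mark the alpha subunits, Hif1a and Epas1, for destruction by the ubiquitin ligase that contains Vhl. When oxygen is scarce, the alpha subunits pair with Arnt and bind a short core motif near their target genes. Those targets raise glucose uptake, glycolysis and lactate export, and they include Vegfa, which drives vessel growth. In solid tumours the same programme is known to mark regions far from vessels, and many cancer cells run glycolysis even with oxygen.

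The core of the hypoxia response element was looked for in RefSeq promoter windows of build GRCm38.p6, from 250 bases before to 50 bases after each start site. The motifs were ACGTG and GCGTG on either strand, so that CACGT and CACGC count as their reverse complements. Of the 38 symbols 34 had a window, and Epas1, Slc2a3, Bnip3l and Ndrg1 had none. At least 1 motif was found for 31 of the 34 genes (91.2%, 95% exact binomial interval 76.3 to 98.1), against 46.7% of all 27025 genes with a window and 65.0% of the 11266 that were tested for expression. The members were chosen by known function, HIF targets among them, and are no random draw of genes. The interval is thus no test against the other shares. A gene counts here if any of its windows holds a motif. By window it was 39 of the members' 48 (81.25%), against 43.8% of all 32851 windows and 59.4% of the 14321 of genes tested. The members' windows also had more G and C (median 62.5% against 52.7% over all windows and 60% in genes tested) and more CpG sites (20.5 against 7 and 19 per window). Gpi1, Tpi1 and Vhl had neither motif in these windows. The 250 bases before the start site are shown for 4 members, of which Car9, Slc2a1 and Adm are among those with the largest KD to WT differences under ICI and Hk2 is the 1 member that was lower in KD under RI. They run 5′ to 3′ on the gene's own strand, and capitals mark each motif.
Car9 promoter: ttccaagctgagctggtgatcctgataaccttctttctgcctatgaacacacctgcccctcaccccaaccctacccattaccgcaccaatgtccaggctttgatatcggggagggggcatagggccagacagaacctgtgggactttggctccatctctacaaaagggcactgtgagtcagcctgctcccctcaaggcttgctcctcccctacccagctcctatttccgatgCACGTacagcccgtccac
Slc2a1 promoter: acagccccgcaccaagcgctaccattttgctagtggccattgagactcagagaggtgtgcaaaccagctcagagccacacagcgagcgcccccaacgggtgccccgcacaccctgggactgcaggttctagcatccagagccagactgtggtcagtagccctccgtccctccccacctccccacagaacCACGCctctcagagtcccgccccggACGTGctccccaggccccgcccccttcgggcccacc
Hk2 promoter: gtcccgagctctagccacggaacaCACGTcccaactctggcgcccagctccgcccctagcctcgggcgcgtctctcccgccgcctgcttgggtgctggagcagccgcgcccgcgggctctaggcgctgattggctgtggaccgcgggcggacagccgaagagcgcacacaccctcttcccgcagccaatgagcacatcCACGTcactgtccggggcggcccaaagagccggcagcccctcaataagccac
Adm promoter: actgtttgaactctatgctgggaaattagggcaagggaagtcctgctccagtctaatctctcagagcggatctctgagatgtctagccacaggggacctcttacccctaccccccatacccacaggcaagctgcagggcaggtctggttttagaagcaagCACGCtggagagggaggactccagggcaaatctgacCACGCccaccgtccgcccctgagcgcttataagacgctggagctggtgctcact
The Car9 sequence is chr4:43506776-43507025 on the plus strand, with CACGT starting at -18 from the start site. That of Slc2a1 is chr4:119108495-119108744 on the plus strand, with CACGC at -61 and ACGTG at -36. Hk2 lies at chr6:82774455-82774704 on the minus strand, with CACGT at -226 and again at -52. Adm lies at chr7:110627407-110627656 on the plus strand, with CACGC at -90 and -54. A match describes the letters of a window only, and both members that were higher and the member that was lower in KD hold the motif.

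The 12 counted libraries hold 17289313 to 23471917 counts each, so that 1 count is 0.0399 to 0.0679 CPM (read counts scaled to library size, here by trimmed mean of M-values). The members took 1.25% to 1.67% of all counts in WT libraries and 1.58% to 2.17% in KD libraries. Tests below are quasi-likelihood tests of edgeR, with p-values adjusted by Benjamini and Hochberg's method over all 16617 genes and a threshold of 0.05, and a change is a log2 fold change ± its standard error. The labels do not say that libraries are separate animals, so p-values measure only the spread between these libraries. Stk11 itself did not pass under ICI or RI, with means of 163 ± 10.3 CPM for WT ICI, 142 ± 4.09 for WT RI, 132 ± 18.4 for KD ICI, and 126 ± 14.2 for KD RI (SD, n = 3 each). KD ICI 3 is labelled ICI, but its description carries CON in the place where KD RI 1 and 3 carry ICI+RT. The descriptions also hold the namings JIAN (WT RI 1 to 3, WT ICI 2, KD ICI 1, KD RI 2), TUI (WT ICI 1 and 3, KD ICI 2) and SG793 (KD ICI 3, KD RI 1 and 3). KD ICI 1 and 2 share the start H80. The sources used here do not explain these namings. Of carcinoma epithelial markers, Krt8 and Krt18 were present in every library while Krt19, Krt7, Epcam and Cdh1 were at or under 1.4 CPM. Krt18 had means of 57.4 and 67.3 CPM in WT ICI and WT RI, against 23.2 and 25.7 in KD ICI and KD RI. Krt8 had 533 and 520, against 578 and 577. Of the 4 carcinoma epithelial genes tested, 2 were lower in KD under ICI and 2 under RI, where 14.9% and 12.1% of all genes were. The 6 lung epithelial markers summed to 0.725 CPM or less. In whole-tumour RNA, fewer cells of a type and less RNA per cell cannot be told apart.

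Under ICI most hypoxia and glycolysis genes were higher in KD than in WT tumours. Past the threshold, 32 of the 39 were higher and 0 lower, where 16.1% of all genes tested were higher and 14.9% lower. The median log2 change of the 39 was 0.83, beside 0.00 over all genes. In 33 members all 3 KD ICI libraries lay above all 3 WT ICI libraries, a separation found in that direction for 20.0% of all genes. By role, the medians were 2.14 for the 2 secreted factors, 1.33 for the 4 pH, collagen and redox genes (0.53 to 2.50), 1.27 for the 5 mitophagy and stress genes (0.92 to 2.80) and 0.96 for the 4 genes of glucose uptake and hexose phosphorylation (0.13 to 2.48). They were 0.67 for the 5 of flux control and pyruvate fate (-0.11 to 0.96), 0.59 for the 13 identifiers of middle and lower glycolysis (-0.11 to 2.09) and 0.41 for the 6 oxygen-sensing genes (0.21 to 1.01). Differences between roles were not tested. The 7 that did not pass were Hif1a, Epas1, Vhl, Hk2, Pfkm, Pfkfb4 and the second Aldoa identifier. Without WT ICI 2 or without WT ICI 3 the count of members higher was 21, where 10.3% and 9.74% of all genes were. With the other libraries left out 1 at a time it was 24 to 31, where 10.2% to 22.8% of all genes were. KD ICI 1 and 2 share the start H80 and count as separate libraries here. If they are not separate animals, the spread within KD ICI may be too small. With them summed into 1 library, the members' median change was 0.78, beside 0.01 over all genes, and 37 of the 39 values were positive. In that fit 12.1% of all genes were higher, and Arnt, Egln3 and Ankrd37 were among the calls lost. Within the JIAN libraries the members' median change was 1.01, and within the TUI libraries 0.78, beside -0.03 and -0.01 over all genes. In each, 37 of the 39 values were positive, and Hk2 was at -0.23 within the TUI libraries. The JIAN fit sets KD ICI 1 against WT ICI 2 with the spread taken from the WT RI libraries, and the TUI fit sets KD ICI 2 against 2 WT ICI libraries that give the only spread. Both assume that a lone library varies like those groups, so these values compare single libraries and add no replicate check.

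**Figure D1:**
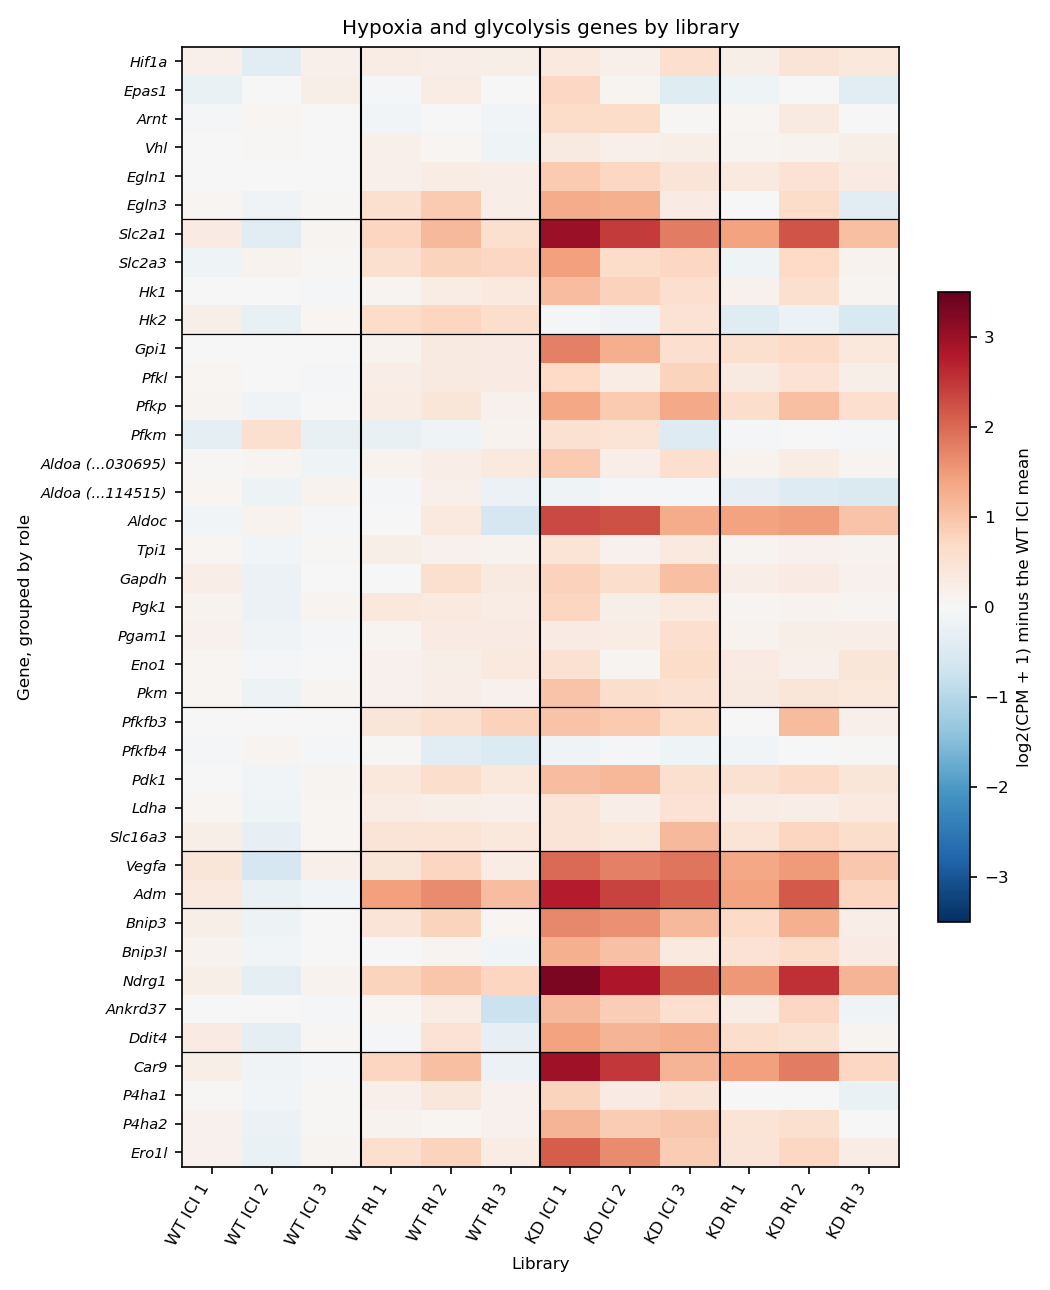
Heat map of log2(CPM + 1) minus the WT ICI mean for each of the 39 members (rows, grouped by role) in 12 libraries (columns); red is higher and blue lower than the WT ICI mean. The 3 KD ICI columns are red in most rows, with Ndrg1 and Slc2a1 in KD ICI 1 among the deepest, while WT RI and KD RI columns are paler.

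Under RI the genotype difference was small in most members. Only 3 of the 39 were higher in KD (Pfkp, Aldoc and Vegfa) and 1 was lower (Hk2), where 9.18% of all genes were higher and 12.1% lower. The median change was 0.10, beside 0.02 over all genes. The count of members higher was 1 without WT RI 1, without WT RI 3 or without KD RI 2, where 5.67%, 6.07% and 5.6% of all genes were. Without the SG793 libraries and within the JIAN libraries the members' median was 0.26, beside 0.00 over all genes. In each, 31 of the 39 values were positive, against 26 in the main fit. KD RI 2 is the 1 KD RI library in both, so its spread is taken from other groups. WT RI 1 to 3 are JIAN, while KD RI 1 and 3 are SG793, a naming that no WT library has. A genotype difference under RI thus cannot be fully told apart from one between namings. The count of members lower was 2 without KD ICI 1 or without KD RI 2, where 12.9% and 9.19% of all genes were. Averaged over both treatments, 23 members were higher in KD and Hk2 was lower, where 20.2% of all genes were higher and 20.5% lower, with a median of 0.39.

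**Figure D2:**
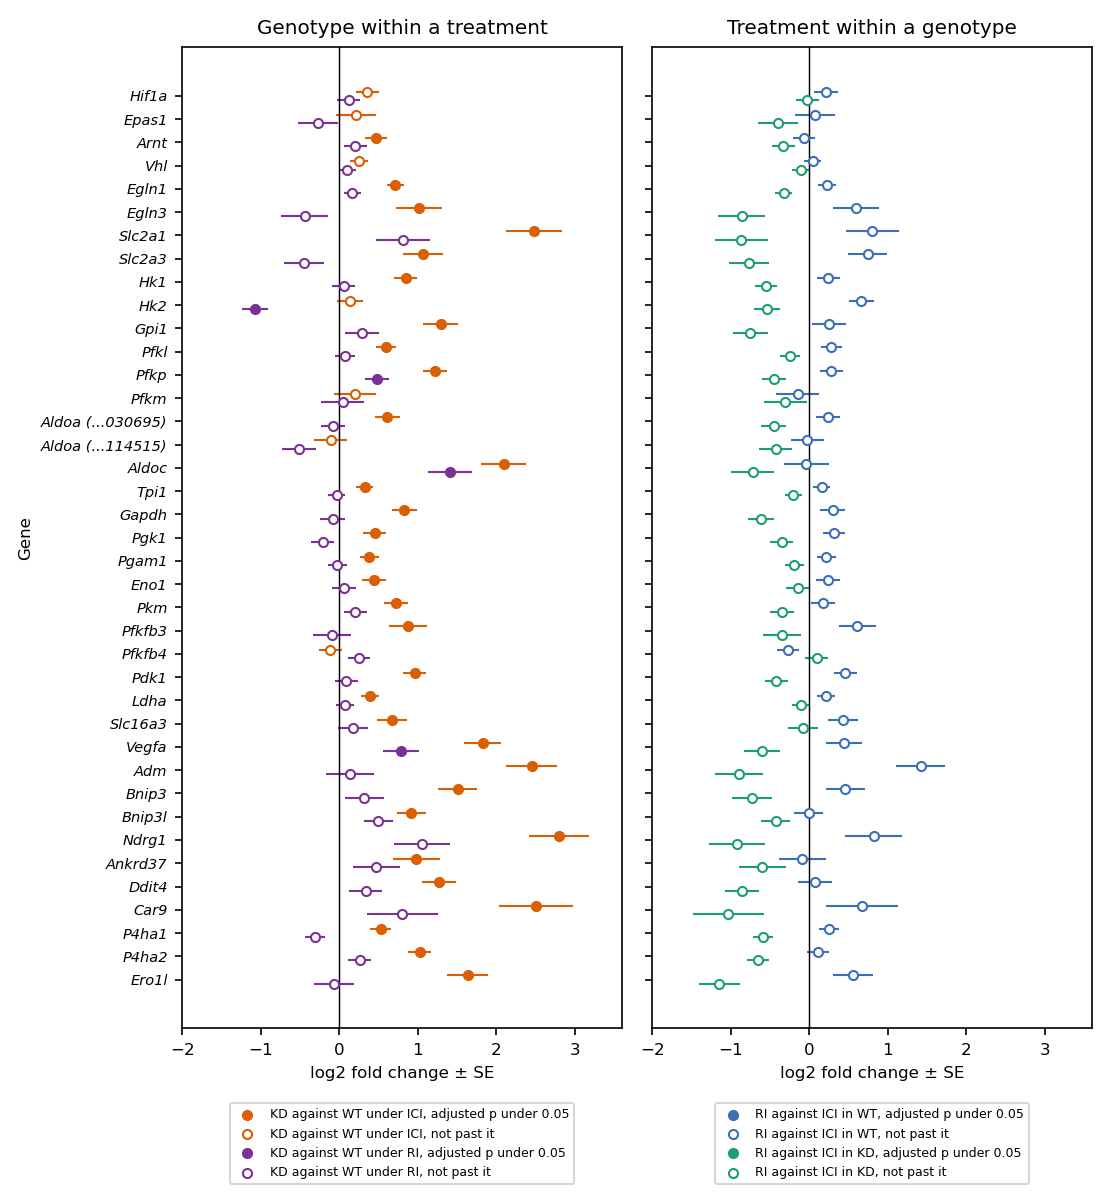
Log2 fold change ± SE of each member for KD against WT within a treatment (left) and for RI against ICI within a genotype (right); filled points passed the threshold of 0.05 and open points did not. Under ICI 32 filled points lie to the right of 0, under RI 3 lie right and 1 left, and the right panel has no filled point.

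Among the oxygen-sensing genes, the hydroxylases and Arnt were higher in KD under ICI, while the alpha subunits and Vhl did not pass. Egln1, the main prolyl hydroxylase, stood at 83.9, 82.4 and 83.4 CPM for WT ICI libraries 1 to 3, 93.9, 100 and 97.3 for WT RI, 158, 137 and 115 for KD ICI, and 106, 119 and 102 for KD RI. All KD libraries lay above all WT libraries of the same treatment. It rose by 0.71 ± 0.11 under ICI (adjusted p = 0.000730), and the RI value of 0.17 ± 0.11 did not pass (0.327). Arnt, the shared partner subunit, was at 89.8, 99.6 and 93.5 CPM for WT ICI, 88.0, 93.8 and 88.1 for WT RI, 147, 148 and 96.2 for KD ICI, and 99.1, 116 and 95.3 for KD RI. KD ICI 3 fell among the WT ICI values while KD ICI 1 and 2 stood above them. The ICI change of 0.47 ± 0.15 passed (0.0286) and was lost on leaving out 1 library in 7 of 12 cases (KD ICI 1 or 2, each WT ICI library, WT RI 1 or 2). Egln3, a hydroxylase that HIF itself induces, rose from 209 ± 15.2 to 421 ± 147 CPM under ICI (1.01 ± 0.30, 0.0236), which did not hold with either H80 library or any WT ICI library left out.

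Hif1a, the oxygen-labile alpha subunit, was at 281, 191 and 278 CPM for WT ICI, 295, 289 and 285 for WT RI, 311, 281 and 368 for KD ICI, and 286, 339 and 318 for KD RI. The ICI groups were separated only narrowly, and neither 0.36 ± 0.15 under ICI (adjusted p = 0.0865) nor 0.12 ± 0.15 under RI (0.633) passed. Epas1, the alpha subunit prominent in endothelial cells, was low, at 12.9, 15.5 and 17.8 CPM for WT ICI, 14.8, 18.5 and 15.4 for WT RI, 26.1, 16.4 and 11.1 for KD ICI, and 13.8, 15.3 and 11.4 for KD RI. KD ICI 1 was the highest and KD ICI 3 the lowest of all 12, so the groups overlapped (0.21 ± 0.26, 0.562). Vhl had 20.8, 21.2 and 20.4 CPM for WT ICI, 23.6, 21.9 and 18.8 for WT RI, 26.1, 23.9 and 24.2 for KD ICI, and 22.2, 22.8 and 24.1 for KD RI. Its ICI groups did not overlap, but 0.25 ± 0.11 did not pass (0.106). HIF alpha subunits are controlled mainly as proteins, which RNA counts do not measure.

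Glucose uptake showed one of the largest changes, while the hexokinases moved apart. Slc2a1, the widespread glucose transporter GLUT1, stood at 224, 139 and 197 CPM for WT ICI, 307, 402 and 268 for WT RI, 1491, 997 and 637 for KD ICI, and 489, 844 and 381 for KD RI. Every KD ICI library was above every WT library, and KD RI 3 fell within the WT RI range. The ICI change was 2.48 ± 0.36 (adjusted p = 0.000574), a 5.58-fold difference, and the RI change of 0.81 ± 0.34 did not pass (0.116). Hk1, the constitutive hexokinase that traps glucose in the cell, was at 130, 129 and 126 CPM for WT ICI, 138, 154 and 163 for WT RI, 274, 226 and 192 for KD ICI, and 144, 191 and 138 for KD RI. KD ICI libraries stood above all others, and the ICI change of 0.85 ± 0.15 passed (0.00135). Slc2a3, the high-affinity transporter GLUT3, rose from 8.49 ± 0.909 to 17.8 ± 6.08 CPM under ICI (1.06 ± 0.25, 0.00806).

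Hk2, the HIF-inducible hexokinase, was the 1 member lower in KD under RI. It was at 176, 130 and 160 CPM for WT ICI, 240, 261 and 237 for WT RI, 149, 143 and 219 for KD ICI, and 114, 132 and 105 for KD RI. The WT RI libraries were the highest of the 12 and the KD RI libraries lay below all of them, while the ICI groups overlapped. Hk2 was lower in KD under RI by a change of -1.07 ± 0.17 (adjusted p = 0.000691), and under ICI the change was 0.13 ± 0.16 (0.570). Its RI call held in all 21 alternative fits run. Hk3, the hexokinase of myeloid cells and no member, fell by 1.67 ± 0.27 under ICI (0.000959) and by 3.14 ± 0.28 under RI (1.66e-05).

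In middle and lower glycolysis 11 of 13 identifiers were higher in KD under ICI. Gpi1, which converts glucose 6-phosphate to fructose 6-phosphate, stood at 403, 407 and 400 CPM for WT ICI, 442, 499 and 496 for WT RI, 1372, 983 and 601 for KD ICI, and 594, 638 and 524 for KD RI. Its KD libraries lay above the WT libraries of the same treatment in both, with KD ICI 1 at more than any other. It rose by 1.29 ± 0.22 under ICI (adjusted p = 0.00135) and had 0.29 ± 0.22 under RI (0.394). Pfkp, the platelet-type phosphofructokinase that catalyses the committed step, had 201, 174 and 191 CPM for WT ICI, 225, 253 and 210 for WT RI, 482, 356 and 477 for KD ICI, and 290, 389 and 283 for KD RI. No KD library overlapped the WT range of its treatment. The changes were 1.22 ± 0.15 under ICI (0.000222) and 0.48 ± 0.15 under RI (0.0375), the latter lost in 9 of 21 alternative fits, among them those without KD RI 2 or any 1 WT library. Aldoc, the brain-type aldolase, stood at 11.3, 13.2 and 11.7 CPM for WT ICI, 12.04, 15.5 and 7.70 for WT RI, 63.4, 59.9 and 30.9 for KD ICI, and 33.3, 35.1 and 25.1 for KD RI. All 6 KD libraries were above all 6 WT libraries. Aldoc rose by 2.09 ± 0.29 under ICI (0.000406) and by 1.41 ± 0.28 under RI (0.00402), with the RI call lost within the JIAN libraries.

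The abundant housekeeping steps were also higher under ICI. Pkm, pyruvate kinase, rose under ICI from 3304 ± 325 to 5453 ± 948 CPM (0.72 ± 0.15, adjusted p = 0.00372). Gapdh rose from 281 ± 42.1 to 499 ± 78.8 CPM (0.83 ± 0.16, 0.00270), and the main Aldoa identifier from 805 ± 69.4 to 1227 ± 285 (0.61 ± 0.16, 0.0121). Pfkl, the liver-type phosphofructokinase, rose by 0.59 ± 0.13 (0.00495). Smaller rises were those of Pgk1 (0.45 ± 0.15, 0.0329), Eno1 (0.45 ± 0.15, 0.0414), Pgam1 (0.38 ± 0.12, 0.0274) and Tpi1 (0.33 ± 0.11, 0.0379), and each of these 4 calls was lost without WT ICI 2 or without WT ICI 3. With each library left out in turn, Eno1 lost its call in 11 of 12 fits (all but that without KD ICI 2), Tpi1 in 10 (all but those without KD ICI 2 or 3), Pgk1 in 7 (each WT library and KD ICI 1) and Pgam1 in 5 (WT ICI 2 and 3 and each WT RI library). The Aldoa call was lost without WT ICI 3. Pfkm, the muscle-type phosphofructokinase, had 59.2 ± 22.0 CPM in WT ICI and 68.1 ± 23.6 in KD ICI and did not pass (0.20 ± 0.27, 0.604). Pfkm was highest in WT ICI 2 at 84.7 CPM, where 8 skeletal muscle markers summed to 1142 CPM, against 24.1 and 21.3 in WT ICI 1 and 3. KD ICI 1 and 2 had Pfkm at 83.2 and 80.1 CPM with muscle sums of 3.67 and 5.69. WT RI 3 had Pfkm at 61.7 CPM with a muscle sum of 910. The part of muscle in the Pfkm values was not tested. The second Aldoa identifier, next to the first on chromosome 7, held 2.49 to 4.61 CPM and did not pass. Gapdh, Eno1, Pgk1, Pgam1, Ldha, Tpi1 and Bnip3l have near-identical copies in the genome, so their counts are uncertain where reads could be split.

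Genes that steer pyruvate towards lactate were higher as well. Pdk1, the kinase that shuts pyruvate dehydrogenase, was at 128, 119 and 136 CPM for WT ICI, 165, 196 and 163 for WT RI, 272, 285 and 187 for KD ICI, and 184, 202 and 171 for KD RI. The KD ICI libraries stood above the WT ICI libraries and the RI groups overlapped. The ICI change was 0.96 ± 0.15 (adjusted p = 0.000714) and the RI change 0.09 ± 0.15 (0.734). Slc16a3, the lactate exporter MCT4, had 448, 317 and 405 CPM for WT ICI, 527, 543 and 502 for WT RI, 525, 496 and 844 for KD ICI, and 534, 645 and 588 for KD RI. KD ICI 3 was the highest of the 12, and 0.67 ± 0.19 passed under ICI (0.0185). Ldha, which makes lactate from pyruvate, had 1279, 1103 and 1274 CPM for WT ICI, 1453, 1394 and 1383 for WT RI, 1659, 1426 and 1713 for KD ICI, and 1469, 1440 and 1539 for KD RI. The lowest KD ICI library was just above the highest WT ICI library (0.39 ± 0.12, 0.0228). Both of these calls were lost without WT ICI 2 or without WT ICI 3, and that of Ldha also without any other WT library. Pfkfb3, which makes the activator of phosphofructokinase, rose from 56.2 ± 0.764 to 103 ± 12.6 CPM under ICI (0.87 ± 0.24, 0.0176), a call lost without either H80 library or any 1 of the WT ICI libraries. Its relative Pfkfb4 had 19.3 ± 1.28 and 17.9 ± 0.801 CPM and did not pass (-0.11 ± 0.14, 0.576).

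Both secreted factors were higher in KD under ICI. Vegfa, the vascular growth factor, stood at 140, 68.9 and 119 CPM for WT ICI, 142, 178 and 125 for WT RI, 421, 357 and 387 for KD ICI, and 269, 297 and 203 for KD RI. The lowest KD library was above the highest WT library. Vegfa rose by 1.83 ± 0.24 under ICI (adjusted p = 0.000285), a 3.55-fold difference, and by 0.79 ± 0.23 under RI (0.0285), the latter lost in 6 of 21 alternative fits, among them those without WT RI 1, WT RI 3, KD RI 1 or KD RI 2. Adm, the vasodilator peptide adrenomedullin, was at 35.4, 23.2 and 25.8 CPM for WT ICI, 76.2, 89.4 and 59.6 for WT RI, 192, 146 and 122 for KD ICI, and 74.5, 125 and 47.4 for KD RI. WT RI was above WT ICI in every library, and the RI groups of both genotypes overlapped. The ICI change was 2.45 ± 0.33 (0.000425) and the RI change 0.14 ± 0.31 (0.808).

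**Figure D3:**
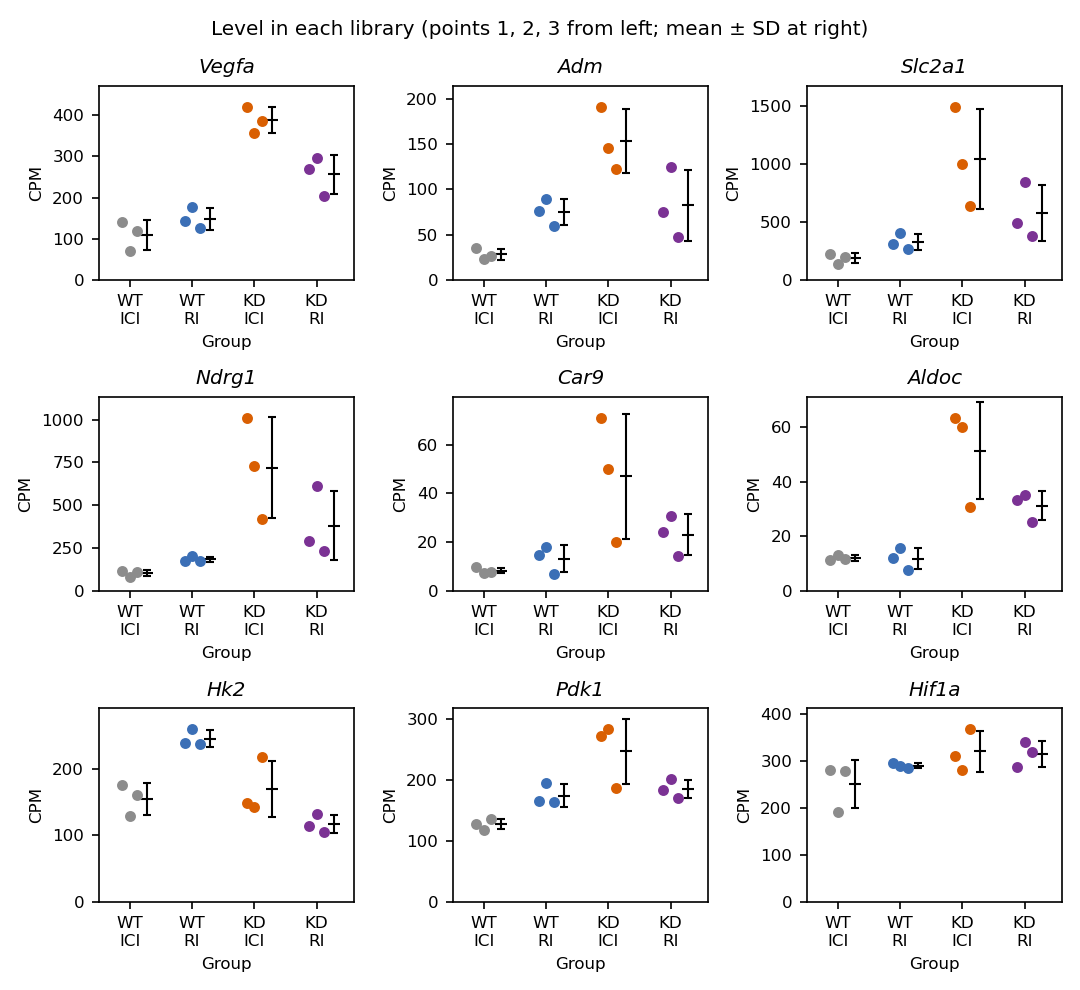
Level in CPM of 9 members in each of the 12 libraries (points, libraries 1 to 3 from left in each group) with the group mean ± SD (n = 3). KD ICI stands above WT ICI for Vegfa, Adm, Slc2a1, Ndrg1, Car9, Aldoc and Pdk1, Hk2 is highest in WT RI, and Hif1a varies least between groups.

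All 5 mitophagy and stress genes were higher in KD under ICI. Ndrg1, a stress-responsive gene widely used as a hypoxia marker, had the largest ICI change of the 39. It stood at 118, 82.6 and 111 CPM for WT ICI, 175, 201 and 173 for WT RI, 1011, 729 and 419 for KD ICI, and 293, 612 and 235 for KD RI. The KD values were above the WT values of the same treatment and spread widely within each KD group. The changes were 2.80 ± 0.38 under ICI (adjusted p = 0.000483), a 6.94-fold difference, and 1.05 ± 0.36 under RI (0.0594), which did not pass. Bnip3l, a mitophagy receptor, had 109, 93.3 and 99.8 CPM for WT ICI, 98.9, 107 and 94.3 for WT RI, 238, 206 and 127 for KD ICI, and 143, 158 and 123 for KD RI. Its 6 KD libraries were above all 6 WT libraries, with 0.92 ± 0.18 under ICI (0.00322) and 0.50 ± 0.18 under RI (0.0748). Ddit4, an inhibitor of mTORC1 signalling, was at 156, 100 and 131 CPM for WT ICI, 123, 180 and 104 for WT RI, 337, 288 and 305 for KD ICI, and 195, 184 and 134 for KD RI. The 3 KD ICI libraries were close together and above all others (1.27 ± 0.21, 0.00129). Bnip3, the other mitophagy receptor, rose from 49.8 ± 6.68 to 141 ± 27.6 CPM under ICI (1.51 ± 0.25, 0.00135), and Ankrd37 from 6.68 ± 0.132 to 13.2 ± 2.71 (0.98 ± 0.30, 0.0261). The Ankrd37 call was lost without either H80 library or any WT ICI library.

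The genes of pH, collagen and disulfide chemistry were all higher under ICI. Car9, the cell-surface carbonic anhydrase that acidifies the surroundings of hypoxic cells, stood at 9.56, 7.45 and 7.84 CPM for WT ICI, 14.6, 18.1 and 6.99 for WT RI, 71.1, 49.97 and 20.05 for KD ICI, and 24.02, 30.8 and 14.2 for KD RI. KD ICI 1 had the most and KD ICI 3 the least of its group, still above every WT library. The ICI change was 2.50 ± 0.47 (adjusted p = 0.00282) and the RI change of 0.80 ± 0.45 did not pass (0.247). P4ha2, a collagen prolyl hydroxylase subunit, had 41.6, 32.5 and 38.4 CPM for WT ICI, 40.8, 39.1 and 41.6 for WT RI, 86.4, 70.2 and 72.6 for KD ICI, and 52.1, 55.7 and 37.8 for KD RI. KD ICI was clear of every other library (1.03 ± 0.15, 0.000450). Ero1l, the oxidase that drives disulfide formation in the endoplasmic reticulum, was at 156, 118 and 148 CPM for WT ICI, 211, 241 and 167 for WT RI, 609, 439 and 259 for KD ICI, and 190, 232 and 169 for KD RI. Its ICI groups were separated and its RI groups overlapped, with 1.63 ± 0.26 under ICI (0.00106) and -0.07 ± 0.26 under RI (0.886). P4ha1, the other collagen prolyl hydroxylase subunit, rose from 135 ± 6.64 to 194 ± 34.7 CPM under ICI (0.53 ± 0.13, 0.00916), lost without WT ICI 2.

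Adding radiation to ICI gave no member a change past the threshold in either genotype, but the signs differed. In WT 0 of 39 were called, where 0.156% of all genes were higher with RI and 0.126% lower; 32 of the 39 values were positive and the median was 0.24, beside 0.00 over all genes. An unadjusted p under 0.05 was found for 8 members and for 1844 of the 16617 genes (11.1%). In 23 members all WT RI libraries were above all WT ICI libraries, as for 13.0% of all genes. In KD 0 of 39 were called, where 0% of all genes were higher and 0.0843% lower; 38 of the 39 values were negative and the median was -0.45, beside -0.02 over all genes. Here 25 members and 2455 genes (14.8%) had an unadjusted p under 0.05. In 13 members all KD RI libraries were below all KD ICI libraries, as for 7.49% of all genes. The difference of these treatment effects was called for 0 members, where 0.0602% of all genes were higher and 0.307% lower, with a median of -0.69, beside -0.02 over all genes. Unadjusted p-values under 0.05 were those of 26 members and 2238 genes (13.5%). The smallest adjusted p-values in this contrast were those of Hk2 (-1.20 ± 0.23, 0.0530), Adm (-2.31 ± 0.44, 0.0576), P4ha1 (-0.84 ± 0.18, 0.0750) and Ero1l (-1.70 ± 0.37, 0.0750). In 7 members RI was above every ICI library in WT and below every ICI library in KD, as for 1.36% of all genes. The comparisons share groups, so their values are not independent of each other. Treatment is also partly tied to the namings: WT RI 1 to 3 and WT ICI 2 are JIAN, and WT ICI 1 and 3 are TUI. KD RI 1 and 3 and KD ICI 3 are SG793. A difference between treatments and one between namings can thus not be fully told apart.

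These counts depended on the libraries included and on the test used. Without KD ICI 3, the library whose description carries CON, 17 members were lower with RI in KD, where 10.5% of all genes then were. A negative difference of treatment effects was then called for 17, where 6.19% of all genes had one. KD ICI is then KD ICI 1 and 2 alone, which share the start H80. The labels do not say whether these are separate animals, so the spread within KD ICI in that fit may be too small. Examples for RI against ICI in KD without that library are Gpi1 (-1.01 ± 0.13, adjusted p = 0.000881), Ero1l (-1.41 ± 0.19, 0.00157) and Pdk1 (-0.58 ± 0.10, 0.00323). For the difference they are Ero1l (-1.96 ± 0.26, 0.00341), Slc2a1 (-1.92 ± 0.49, 0.0414) and Adm (-2.45 ± 0.52, 0.0268). Without KD RI 2 the counts were 2 and 7, where 0.677% and 0.934% of all genes were called in that direction, and without KD ICI 2 they were 0 and 2, where 0.123% and 0.363% were. DESeq2's Wald test on all 12 libraries gave 2 members higher with RI in WT (Hk2 and Adm), where 1.32% of all genes were. It gave 7 members lower in KD, where 2.37% of all genes were, and 19 with a negative difference, where 2.81% of all genes had one.

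Markers of other cells also differed between these libraries. Over the 39 members, the mean deviation of log2 CPM from each gene's mean over the 12 libraries was 0.73, 0.46 and 0.30 in KD ICI 1 to 3, -0.02, 0.24 and -0.16 in KD RI, -0.33, -0.51 and -0.39 in WT ICI, and -0.13, 0.03 and -0.22 in WT RI. The 8 neutrophil markers summed to 756, 402 and 222 CPM in KD ICI 1 to 3 and 111, 309 and 127 in KD RI, against 104, 52.1 and 92.1 in WT ICI and 164, 171 and 184 in WT RI. By both measures KD ICI 1, KD RI 2 and WT ICI 1 were the highest of their groups, while WT RI 3 had the highest neutrophil sum and the lowest member deviation of its group. Erythroid markers summed to 2193, 775 and 179 CPM in KD ICI and to 769 in WT ICI 2, with 39.4 to 148 in the other libraries. The 8 proliferation genes ran the other way in KD ICI, at 831, 1109 and 1979 CPM, beside 1701 to 1861 in WT and 1507 to 1987 in KD RI. Macrophage markers summed to 688 to 1067 CPM in WT and 252 to 538 in KD, and T cell markers to 23.4 to 41.6 in WT and 1.16 to 4.05 in KD. Endothelial markers summed to 216, 117 and 131 CPM in KD ICI 1 to 3. They summed to 114, 160 and 125 in KD RI and to 93.4 to 125 in WT. Fibroblast markers summed to 1774 to 4140 CPM in WT and 1859 to 3837 in KD. In KD under ICI 7 of 8 neutrophil genes rose, 6 of 8 macrophage genes fell and 8 of 8 T cell genes fell. Also called were 1 of 6 erythroid and 1 of 8 endothelial genes (higher) and 1 of 8 proliferation genes (lower). Of 8 fibroblast genes 1 was higher and 1 lower. Of 4 carcinoma epithelial genes tested 0 were higher and 2 lower, and of 7 skeletal muscle genes tested 0 were called. Of all genes 16.1% were higher and 14.9% lower. Their part in the hypoxia and glycolysis values was not tested.

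**Figure D4:**
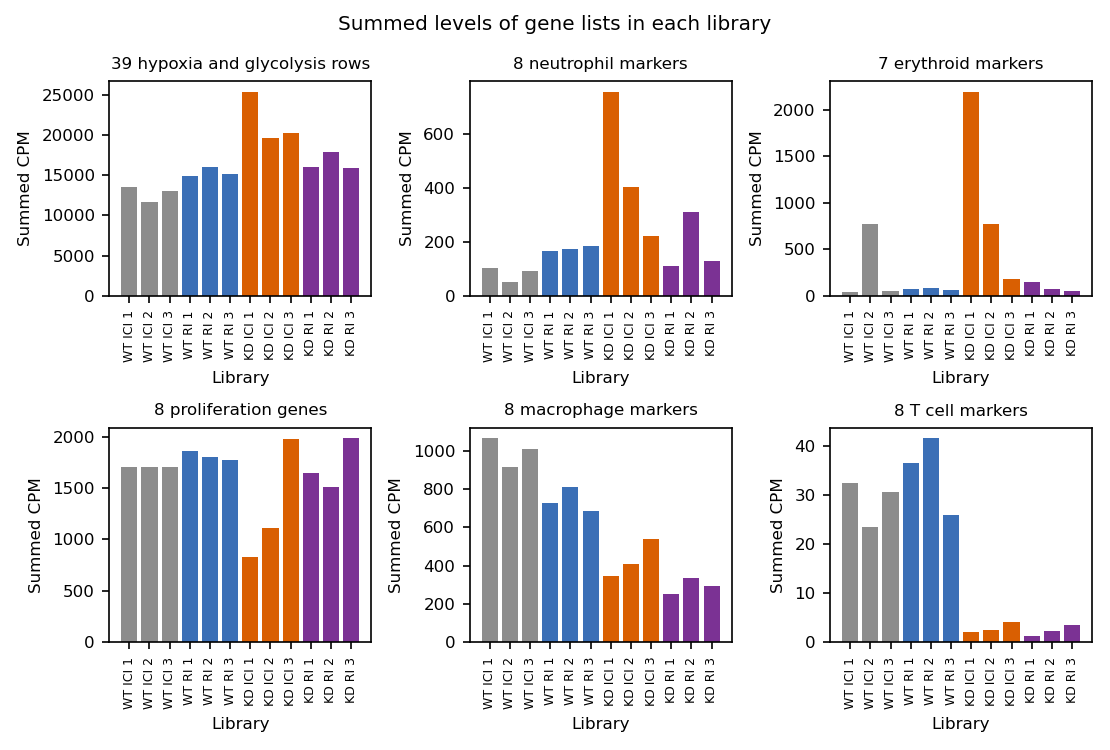
Summed CPM in each of the 12 libraries for the 39 members and for 5 lists of cell markers (bars, coloured by group; each axis starts at 0). The members' sum is highest in KD ICI 1 at 25443 CPM, where neutrophil and erythroid sums are also highest and the proliferation sum is lowest.

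Of other genes of the pathway, 60 were named for known function and 55 tested. Under ICI 13 of the 55 were higher and 5 lower in KD, where 16.1% of all genes were higher and 14.9% lower, with a median of 0.19. Under RI 4 of the 55 were higher and 4 lower, where 9.18% of all genes were higher and 12.1% lower, with a median of 0.12. Bhlhe40, a HIF-induced repressor, rose under ICI from 29.9 ± 0.611 to 123 ± 37.9 CPM (2.04 ± 0.26, adjusted p = 0.000288). Mxi1, a MYC antagonist, rose by 1.16 ± 0.12 (8.57e-05), the glycogen synthase gene Gys1 by 0.91 ± 0.11 (0.000182), and Mpc1, of the mitochondrial pyruvate carrier, by 0.89 ± 0.15 (0.00116). Lower under ICI were Hk3, as given above, Cul2, the scaffold of the Vhl ligase (-0.51 ± 0.10, 0.00238), Gbe1, the glycogen branching enzyme (-0.79 ± 0.24, 0.0269) and Ldhb (-0.58 ± 0.20, 0.0479). Under RI Stc1, a secreted glycoprotein, rose by 1.29 ± 0.30 (0.00974), along with Pdhb of pyruvate dehydrogenase (0.29 ± 0.08, 0.0219) and the carrier subunits Mpc1 (0.48 ± 0.15, 0.0345) and Mpc2 (0.40 ± 0.12, 0.0331). Besides Hk3, those lower under RI were Gbe1 (-1.38 ± 0.25, 0.00172), the repressor Bhlhe41 (-0.91 ± 0.18, 0.00378) and Cul2 (-0.44 ± 0.10, 0.00572). None of the 55 passed for RI against ICI in either genotype or for the difference.

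Per length, Pkm was the highest of the members. By mean FPKM over the 12 libraries (fragments scaled to transcript length and library size), the order began with Pkm at 562, Eno1 at 290, Pgk1 at 284, Pgam1 at 247 and Ldha at 212, and Slc2a3 was lowest at 1.15. Eno1 and Pgk1 did not differ beyond their spread, and the copies named above touch 4 of these 5 genes.

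In KD tumours with radiation alone, levels are known only as FPKM from a table normalized on its own, so they were described within it and not tested. KD RT 1 had the highest value of the 3 libraries in 28 of 38 members and KD RT 4 the lowest in 28. With FPKM scaled to the same sum in each library (TPM), these counts were 29 and 25. The same counts over all genes were not made, so the order is not shown to be particular to the members. Slc2a1 was at 110, 42.3 and 73.2 FPKM in KD RT 1, 4 and 5, and Egln3 at 206, 89.6 and 136. Ndrg1 had 47.9, 17.8 and 36.9 FPKM, Adm 31, 10.02 and 23.1, and Car9 5.97, 1.04 and 5.32. In each of these 5 genes KD RT 1 was highest and KD RT 4 lowest. Hif1a went the other way, at 32.9, 48.4 and 46.6 FPKM. KD RT 4 also had the highest value of all 8 muscle markers, which summed to 162 FPKM against 10.99 in KD RT 1 and 3.08 in KD RT 5, and of all 8 proliferation genes, at 191 against 145 and 127. Erythroid markers summed to 55.8, 23.5 and 23.3 FPKM in KD RT 1, 4 and 5. Neutrophil markers summed to 34.2, 22.95 and 64.7 FPKM, with 6 of the 8 highest in KD RT 5. Their part in the differences between these libraries was not tested. Over 37 members the ratio of the RT mean to the KD RI mean ran from 0.182 (Vegfa) to 3.91 (Pkm), with a median of 0.938, so no gene was compared across the tables.

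**Figure D5:**
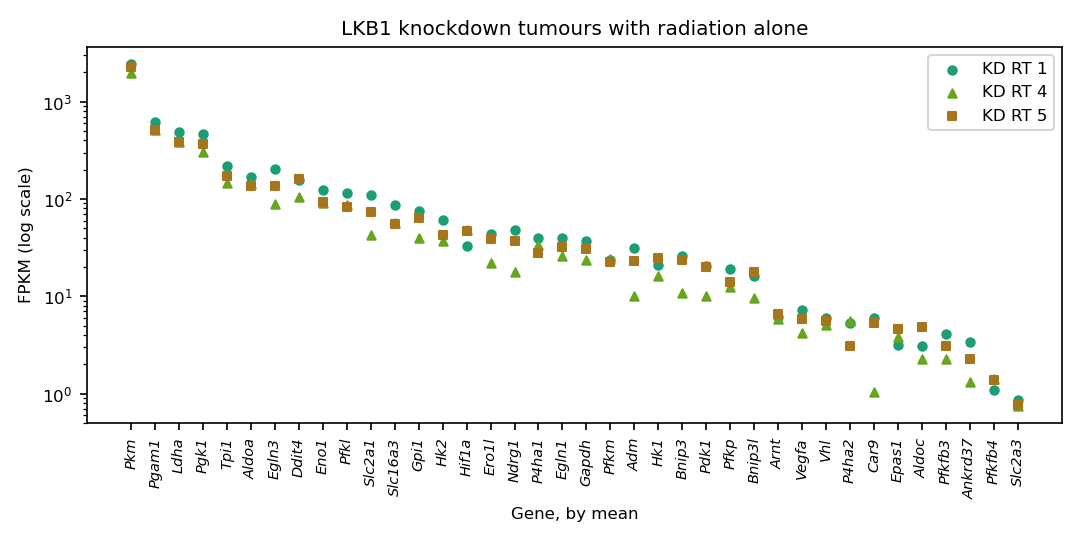
FPKM (log scale) of the 38 members in the 3 KD libraries with radiation alone, ordered by mean. KD RT 1 is the highest point in 28 genes and KD RT 4 the lowest in 28.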

How the data were processed

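Per the file headers, 1 deposited table gives read counts with FPKM per gene in 12 libraries (ICI and RI) and another gives FPKM in the 3 RT libraries (34745 rows, 59 names listed more than once). HISAT2 and the build GRCm38 (mm10) are named per the submitters' processing notes. The sources used here give no version, counter, annotation or strand setting, so antisense overlap cannot be told apart. Counts were scaled by TMM (factors 0.852 to 1.07) and filtered with filterByExpr (minimum count 10, minimum total count 15). One edgeR 4.0.16 quasi-likelihood model (robust, 1 mean per group) was fitted to 12 libraries, and 6 contrasts were tested on both sides at an adjusted p of 0.05. The fit was also run on counts simulated from its own estimates of spread, with independent libraries. Such a run cannot show effects of the namings or of the shared start H80. The members, lists and alternatives were chosen with earlier results of these data known. Values in every library are given for the HIF subunits and Vhl and for up to 3 members per role of smallest p on average over treatments. In the other pathway list, up to 4 genes in each direction are named by smallest p. Replicate numbers do not pair libraries: deviations of same-numbered libraries correlated at a mean r of 0.00638 (-0.344 to 0.301). Intervals cover counting error only.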

Additional observations from a re-analysis of the deposited data

Results flagged for a closer look

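In 7 members every RI library was above every ICI library in WT and below every ICI library in KD, a pattern held by 226 of the 16617 genes (1.36%), and 0 members had the opposite pattern. The difference itself was tested with edgeR's quasi-likelihood test, and none passed the threshold. DESeq2's Wald test, and the edgeR fit without KD ICI 3, each called 5 of the 7 (Hk1, Hk2, Pgk1, P4ha1 and Ero1l). Of all genes, 2.81% and 6.19% had a negative difference past the threshold in those fits. The 7 were picked by the order of these same libraries, so these calls are no separate support for the pattern. Without KD ICI 3, the KD ICI group is KD ICI 1 and 2, which share the start H80. In the edgeR fit on all libraries the log2 differences of the treatment effects were -1.20 for Hk2 (adjusted p = 0.0530), -1.70 for Ero1l (0.0750), -0.84 for P4ha1 (0.0750), -0.79 for Hk1 (0.127), -0.66 for Pgk1 (0.180), -0.52 for Pkm (0.296) and -0.36 for Tpi1 (0.322). The KD side of each includes KD ICI 3, whose ICI label and description differ.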

How the results depend on the processing

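For KD against WT under ICI, 32 members were higher, where 16.1% of all genes were. Leaving out 1 library gave 21 to 31, where 9.74% to 22.8% of all genes were higher. The other alternatives gave 23 to 32, with 23 by library size alone, where 9.42% of all genes were. Library size alone puts the median log2 change of all genes at -0.205 there, -0.129 on average over treatments and 0.120 for the difference. Members lower were 0, and 1 within the TUI libraries (Hk2, -0.23). Under RI the 3 higher became 9 without the SG793 libraries and 9 within the JIAN libraries, where Pfkfb3 turned to 0.53 and 0.52, and 1 to 4 with 1 library left out. The 1 lower under RI became 2 by library size alone, with only the groups compared or with the H80 libraries summed into 1. In these fits 13.7%, 16.4% and 12.7% of all genes were lower. With 1 library left out it was 1 to 2, where 8.33% to 15.9% were. On average over treatments the 23 higher were 19 to 24 with 1 library left out, where 15.3% to 25.2% of all genes were. The 1 lower was 2 by library size alone, where 27.7% of all genes were. For RI against ICI in WT the 0 higher became 2 with DESeq2, 7 with only the groups compared and 5 without SG793. In these fits 1.32%, 2.78% and 1.25% of all genes were higher, against 0.156% in the main fit. With 1 library left out it was 0 to 2, where 0.00585% to 1.01% of all genes were. Within JIAN, where 1 library stands for WT ICI, the members' median was 0.35. In KD the 0 lower became 2 with no filter and 7 with DESeq2, where 0.299% and 2.37% of all genes were lower. With 1 library left out it was 0 to 17, where 0% to 10.5% of all genes were. Within JIAN, where 1 library stands for each KD group, the members' median was -0.51. For the difference the 0 lower became 5 with no filter, 19 with DESeq2 and 1 with H80 summed. In these fits 0.393%, 2.81% and 0.304% of all genes were lower. With 1 library left out it was 0 to 17, where 0.0468% to 6.19% of all genes were. The members' median was -0.59 without SG793 and -0.79 within JIAN, where 1 library stands for KD RI. The causes were not tested. With the replicate block the ICI count stayed at 32, where 15.2% of all genes were higher, and under RI Pfkp lost its call. A library's best correlation was with its own number in 3 of 12. Over single members, 4565 alternative values kept direction and side of the threshold (a sign change with neither value past it counted here), 151 newly passed, 156 no longer did and 3 reversed.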
